A study of Homo sapiens with 2 samples.

Results

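Chromosomes 15 and 18 carried fewer accessible regions in RPMI-8402 than in Jurkat, and the regions described here are all ATAC-seq peaks that the authors listed on them. ATAC-seq uses the Tn5 transposase to cut and tag open DNA, and a peak is a stretch where tagged fragments pile up above the local background. Jurkat and RPMI-8402 are established human cell lines of T-cell acute lymphoblastic leukaemia, a cancer of immature T cells, grown here in RPMI-1640 medium with tetracycline-free serum and antibiotics. Each line had 1 library and, as far as the labels say, no treatment. The members are 2218 of the 49804 peaks in both lists, 1236 of 25197 in Jurkat and 982 of 24607 in RPMI-8402. The chromosomes were chosen by their low ratios of RPMI-8402 to Jurkat peak number in these same libraries. Every value below is therefore a description, with no test, no replicate error and no independent support. Intervals cover counting error or the spread over peaks within a library, never the spread between cultures.

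Chromosome 15 is acrocentric, so its short arm is made mostly of repeats and its mapped genes lie on the long arm. It carries the imprinted Prader-Willi and Angelman genes SNRPN and UBE3A, and T-cell genes such as RASGRP1, which activates Ras below the T-cell receptor, B2M, the light chain of MHC class I, and TCF12, an E-protein transcription factor. Chromosome 18 is poor in genes and tends to lie near the nuclear edge in lymphocytes. Among its genes are BCL2, which blocks apoptosis, MALT1 and NFATC1, which act in antigen receptor signalling, PTPN2, a phosphatase that restrains cytokine signalling, and TCF4, another E-protein. All 56 genes of the lists drawn up for these chromosomes matched a RefSeq symbol, 34 on chromosome 15 and 22 on chromosome 18. The RefSeq table (GRCh38.p14) and the peaks (hg19) are on different builds, so no peak was placed on a gene. For the same reason the open loci that define T cells were not checked here.

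The smaller chromosome in gene number was the richer in peaks per gene. Chromosome 18 has 270 protein-coding genes and held 478 Jurkat and 382 RPMI-8402 peaks, or 1.77 and 1.41 peaks per gene. Chromosome 15 has 617 protein-coding genes and held 758 and 600 peaks, or 1.23 and 0.972 per gene. Over all autosomes the values were 1.28 in Jurkat and 1.24 in RPMI-8402. Jurkat thus had about the autosomal density on chromosome 15 and a higher density on chromosome 18. RPMI-8402 was below the autosomal density on 15 and above it on 18. From the highest autosome, chromosome 18 ranked 2 in Jurkat, below chromosome 13 (1.90). It ranked 6 in RPMI-8402, where chromosome 4 was highest (2.02).

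The ratio of RPMI-8402 to Jurkat peak number that chose the members was 0.792 on chromosome 15 (95% exact interval 0.710 to 0.882) and 0.799 on chromosome 18 (0.697 to 0.916). The other 20 autosomes together held 23201 Jurkat and 22647 RPMI-8402 peaks, a ratio of 0.976 (0.958 to 0.994). Only chromosome 13 lay lower, at 0.655, and the next above was chromosome 22 at 0.850. Few broad peaks were split in 1 line only: 3 of 487 shared regions on chromosome 15 and 1 of 259 on chromosome 18 held unequal numbers of peaks. Counted as merged regions, the ratios were 0.795 and 0.801. The length covered differed less than the number. The median listed peak was wider in RPMI-8402, at 718.5 against 620 bp on chromosome 15 and 667 against 551 bp on chromosome 18. Peaks on chromosome 15 covered 501 kb in Jurkat and 442 kb in RPMI-8402, a ratio of 0.883, and those on chromosome 18 covered 310.2 and 286 kb, a ratio of 0.923. On the other autosomes that ratio was 1.09, and the median listed peak was 694 bp in RPMI-8402 against 612 bp in Jurkat. The greater width in RPMI-8402 was thus not particular to chromosomes 15 and 18.

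Narrow peaks held a large part of the missing number. Chromosome 15 had 168 Jurkat and 74 RPMI-8402 peaks under 400 bp wide, a ratio of 0.440, and chromosome 18 had 124 and 46, a ratio of 0.371. The other autosomes also had fewer narrow RPMI-8402 peaks, with a ratio of 0.553, and the narrowest peak of the whole list was 309 bp in RPMI-8402 and 261 bp in Jurkat. Among peaks of at least 400 bp the ratios were 0.892 (0.791 to 1.004) on chromosome 15 and 0.949 (0.815 to 1.11) on chromosome 18, against 1.11 on the other autosomes. Divided by the ratio of the other autosomes, the ratios came to 0.803 and 0.855 for these wider peaks and to 0.796 and 0.671 for the narrow ones. Relative to the other autosomes, the deficit of chromosome 15 was thus about the same in narrow and wider peaks. That of chromosome 18 was larger in narrow ones.

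Along chromosome 15 the deficit was spread over nearly the whole length. Peaks began at position 20134039 and ended at 102517629, and 15 of 17 bins of 5 Mb held fewer RPMI-8402 than Jurkat peaks, where 54.3% of all 567 autosomal bins did. The bin at 45 to 50 Mb had 32 peaks in each line, and the bin at 30 to 35 Mb had 27 in Jurkat and 28 in RPMI-8402. The widest differences were at 90 to 95 Mb, with 66 Jurkat and 47 RPMI-8402 peaks, and at 75 to 80 Mb, with 78 and 60. The first of these held 12.0% of the net difference of 158 peaks, and 6 bins were needed to reach 50% of the summed deficits. Leaving out each bin in turn kept the ratio between 0.778 and 0.799. The bins from 20 to 65 Mb had a ratio of 0.809 and those from 65 to 105 Mb a ratio of 0.778. Peak-rich and peak-poor bins both took part. The densest bin, at 40 to 45 Mb, had 83 Jurkat and 72 RPMI-8402 peaks, and the sparsest, at 35 to 40 Mb, had 20 and 15.

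**Figure D1:**
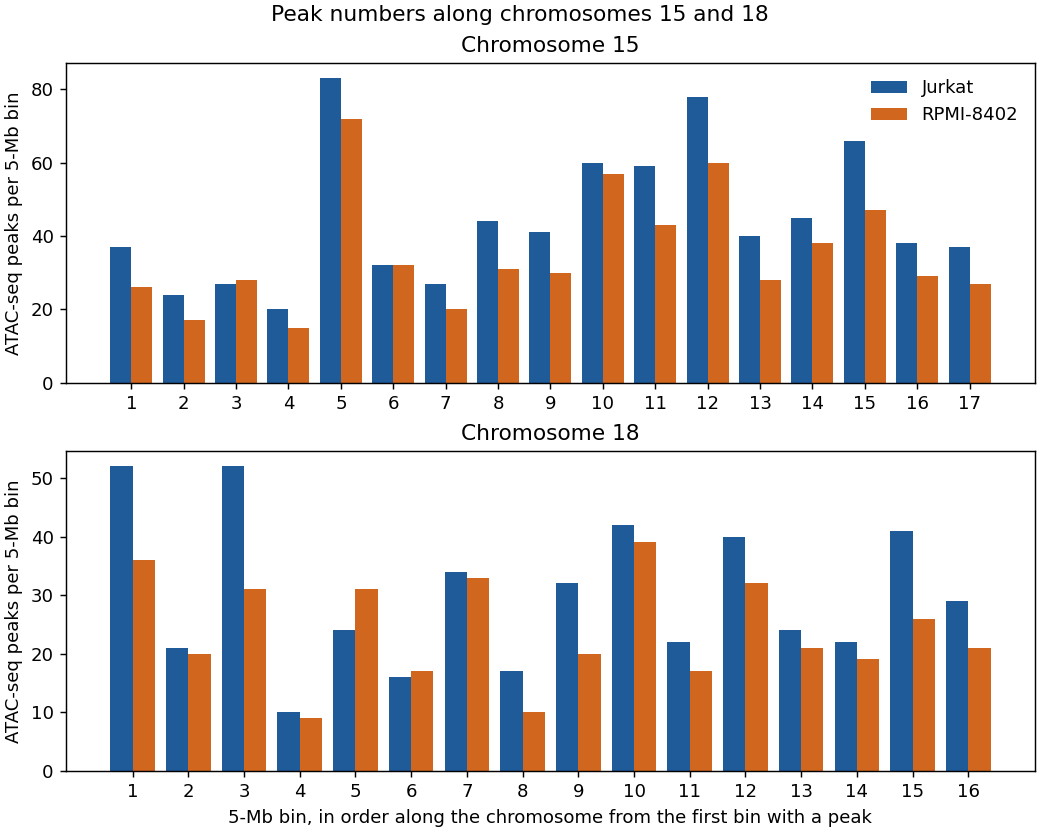
Bars give the number of ATAC-seq peaks of Jurkat (blue) and RPMI-8402 (orange) in each 5-Mb bin, ordered along chromosome 15 (top) and chromosome 18 (bottom). RPMI-8402 bars are lower in 15 of 17 bins on chromosome 15 and in 14 of 16 on chromosome 18, where the fifth bin goes the other way.

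Chromosome 18 also had fewer RPMI-8402 peaks in most bins, but fewer bins held most of its smaller net difference. The largest difference in a bin was 21 peaks, against 19 on chromosome 15. Its bins held 10 to 52 Jurkat peaks, against 20 to 83 on chromosome 15, so counting error weighs more in each. RPMI-8402 had fewer peaks in 14 of 16 bins and more in 2, where 40.6% of all autosomal bins had more. The bin at 10 to 15 Mb differed most, with 52 Jurkat and 31 RPMI-8402 peaks, followed by 0 to 5 Mb, with 52 and 36. The first of these held 21.9% of the net difference of 96 peaks, and 3 bins reached 50% of the summed deficits. At 20 to 25 Mb the order was turned, with 24 Jurkat and 31 RPMI-8402 peaks, and at 25 to 30 Mb the numbers were 16 and 17. In 6 further bins, at 5 to 10, 15 to 20, 30 to 35, 45 to 50, 60 to 65 and 65 to 70 Mb, the numbers were lower by only 1 to 3 peaks in RPMI-8402. The widest gap with no peak in either list, 3.45 Mb from 15060889 to 18512095, divides the chromosome. Below it Jurkat had 126 and RPMI-8402 87 peaks, a ratio of 0.690 (0.519 to 0.915), and above it 352 and 295, a ratio of 0.838 (0.715 to 0.981). These intervals overlap. Leaving out each bin in turn kept the ratio of the whole chromosome between 0.773 and 0.824.

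Sharing of peaks, counted at an overlap of at least 1 bp, differed in degree between the 2 chromosomes. On chromosome 15, 64.6% of Jurkat peaks (490 of 758, interval 61.1 to 68.1%) and 81.2% of RPMI-8402 peaks (487 of 600, interval 77.8 to 84.2%) had a partner in the other list. On chromosome 18 the shares were 54.4% in Jurkat (49.8 to 58.9%) and 67.8% in RPMI-8402 (62.9 to 72.5%). The other autosomes had 67.6% and 68.2%. Peaks without a partner numbered 268 in Jurkat and 113 in RPMI-8402 on chromosome 15, or 35.4% and 18.8%, and 218 and 123 on chromosome 18, or 45.6% and 32.2%. Over all autosomes 32.8% of Jurkat and 31.4% of RPMI-8402 peaks had none. Within each line's own list, the RPMI-8402-only share was thus low on chromosome 15 and the Jurkat-only share high on chromosome 18. These shares depend on list length, which the deficit itself changes. Of merged regions, 268 of 868 on chromosome 15 and 218 of 600 on chromosome 18 were Jurkat-only, against 8010 of 31628 on all autosomes. RPMI-8402-only regions numbered 113, 123 and 7427. Counted this way, both chromosomes had a higher Jurkat-only and a lower RPMI-8402-only share than all autosomes. By bin, Jurkat-only peaks outnumbered RPMI-8402-only peaks in 15 of 17 bins on chromosome 15 and in 14 of 16 on chromosome 18. Shared peaks were equal or nearly equal in number in each bin. These are therefore the same bins that held fewer RPMI-8402 peaks, and not a further result. At 80 to 85 Mb of chromosome 15 there were 14 Jurkat-only and 2 RPMI-8402-only peaks, and at 10 to 15 Mb of chromosome 18 there were 25 and 4.

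The shared percentage rose with peak strength, and the chromosomes differed at matched strength in the weaker classes. The authors' −log10 q was used to divide the autosomal peaks of each list into 5 equal classes. At the weak end, 24.1% of Jurkat peaks on chromosome 15 (17.4 to 31.9%) and 12.3% on chromosome 18 (6.69 to 20.1%) were shared, against 29.2% on the other autosomes (27.9 to 30.5%). Of the weakest RPMI-8402 peaks, 48.7% (39.3 to 58.2%) were shared on chromosome 15 and 33.3% (23.2 to 44.7%) on chromosome 18, against 32.3% elsewhere (31.0 to 33.7%). In the second class of RPMI-8402 peaks the shares were 72.9% on chromosome 15, 51.2% on chromosome 18 and 50.1% on the other autosomes. In the third class they were 87.2%, 71.3% and 71.3%, and in the fourth 96.0%, 96.6% and 89.8%, so the contrast between chromosomes 15 and 18 was not seen there. In the strongest class, 105 of 106 Jurkat and 60 of 60 RPMI-8402 peaks on chromosome 15 had a partner, and 93 of 95 and 67 of 68 on chromosome 18. RPMI-8402 peaks were fewer on both chromosomes in every class, cut on each list's own ranks, with no steady trend in strength. From class 1 to 5 the ratios of RPMI-8402 to Jurkat peak number were 0.793, 0.656, 0.898, 0.947 and 0.566 on chromosome 15. On chromosome 18 they were 0.764, 0.734, 0.949, 0.855 and 0.716. The other autosomes had ratios between 0.970 and 0.984.

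**Figure D2:**
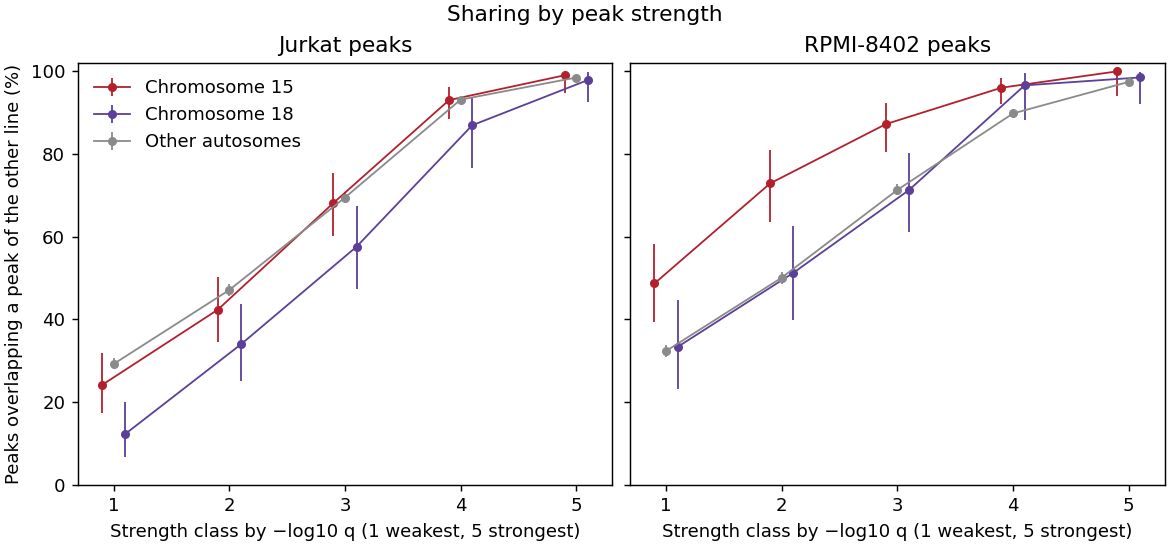
Points give the percentage of Jurkat (left) and RPMI-8402 (right) peaks that overlap a peak of the other line, by strength class from 1 (weakest) to 5 (strongest), and bars are 95% exact binomial intervals. Weak RPMI-8402 peaks on chromosome 15 (red, 48.7% in class 1) lie above those of chromosome 18 (purple, 33.3%) and of the other autosomes (grey, 32.3%).

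Most peaks without a partner were weak. Their median summit pileup, the number of fragments over the highest base, was 19 in Jurkat on both chromosomes, as on the other autosomes, and 19 and 20 in RPMI-8402. The lowest were 9 in Jurkat, and 11 and 10 in RPMI-8402, at or near the weakest calls in those libraries. A pileup of 50 or more was reached by 11 of 268 Jurkat-only peaks on chromosome 15 (4.10%) and 12 of 218 on chromosome 18 (5.50%), where 5.27% of Jurkat-only peaks on all autosomes reached it. It was reached by 7 of 113 RPMI-8402-only peaks on chromosome 15 (6.19%) and 4 of 123 on chromosome 18 (3.25%), against 7.19%. For weak peaks, a missing partner was not distinguishable at this depth from a call just under the threshold in the other library.

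A few line-only peaks were well above that level, and those named here lead by −log10 q among peaks at least as wide as their library's median. The strongest on chromosome 18 was Jurkat-only, at positions 976101 to 976908, with a pileup of 219 (95% Poisson interval 191 to 250). The next, at 43266816 to 43267850, reached 115 fragments (94.9 to 138) at 11.8-fold enrichment, and its nearest RPMI-8402 peak lay 16081 bp away. Jurkat also had a peak with a pileup of 63 (48.4 to 80.6) at 44526507 to 44527176, at 15.1-fold enrichment. The RPMI-8402-only peak at 5237366 to 5238532 reached 88 fragments (70.6 to 108) at 12.5-fold enrichment, 56375 bp from the nearest Jurkat peak. RPMI-8402 also had wide peaks at 32073228 to 32074075, with a pileup of 59 (44.9 to 76.1), and at 24235742 to 24237356, with a pileup of 61 (46.7 to 78.4). That last peak was 1615 bp wide and lay in a run of 4 RPMI-8402-only regions.

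On chromosome 15 the leading Jurkat-only peak, at positions 36871432 to 36872277, reached 64 fragments (49.3 to 81.7), and the nearest RPMI-8402 peak was 521211 bp away. Those at 94774253 to 94774957 and 84748485 to 84749366 had pileups of 52 (38.8 to 68.2) and 48 (35.4 to 63.6). The RPMI-8402-only peak at 26327325 to 26328067 had a pileup of 53 (39.7 to 69.3), 342036 bp from the nearest Jurkat peak. The other leading RPMI-8402-only peaks lay close to a Jurkat peak: 75321548 to 75322789, with a pileup of 56 (42.3 to 72.7), was 5257 bp from one, and 37393489 to 37394592, with 69 (53.7 to 87.3), was 1906 bp from one.

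Runs of consecutive line-only regions were seldom long in either line. The longest Jurkat-only run held 7 regions of chromosome 18 between 73260457 and 74093192, none with a pileup over 31. The next there held 5 regions at 2881850 to 2962189. On chromosome 15, 6 Jurkat-only regions followed one another at 84748485 to 84976595 and 5 at 57224240 to 57614584. Each chromosome had 4 Jurkat-only runs of at least 5 regions, or 2.27% of 176 runs on chromosome 15 and 3.01% of 133 on chromosome 18, where 1.52% of all autosomal Jurkat-only runs were as long. In RPMI-8402 there were 0 such runs on either, where 2.52% of all its autosomal runs were as long. The longest RPMI-8402-only runs held 3 regions on chromosome 15, at 20212048 to 20547339 and 26095411 to 26328067, and 4 on chromosome 18, at 24128614 to 24283959 and 61705039 to 61998412.

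Where both lines had a peak, the signal was lower in RPMI-8402 along most of both chromosomes. Jurkat and RPMI-8402 peaks overlapped 1-to-1 in 484 pairs on chromosome 15 and 258 on chromosome 18. The median summit pileup of these pairs was 54 in Jurkat and 43 in RPMI-8402 on chromosome 15, and 56.5 and 43 on chromosome 18, while on the other autosomes it was 59 and 54. Ratios are given as log2 of RPMI-8402 over Jurkat, relative to the median of all 16477 pairs on the autosomes and X, which was −0.17 for pileup, −0.24 for fold enrichment, 0.10 for local background and 0.05 for width. The median log2 pileup ratio was −0.22 on chromosome 15 (interval of the median over pairs −0.27 to −0.13) and −0.32 on chromosome 18 (−0.40 to −0.23), or 0.856 and 0.799 on the linear scale. The quartiles were −0.52 and 0.19 on chromosome 15 and −0.67 and 0.17 on chromosome 18, so many single pairs went the other way. Pairs below 0 numbered 305 of 484 (63.0%) and 173 of 258 (67.1%), where 49.8% of all pairs lay below 0.

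The chromosomes differed in how much of this shift came from large differences. A pileup at least 1.5-fold lower in RPMI-8402 was found in 95 pairs on chromosome 15 (19.6%) and 80 on chromosome 18 (31.0%), where 16.1% of all pairs had it. A pileup at least 1.5-fold higher was found in 48 (9.92%) and 34 (13.2%), where 20.3% had it. At 2-fold, 28 pairs on chromosome 15 (5.79%) and 24 on chromosome 18 (9.30%) were lower, against 4.89% of all pairs, and 21 (4.34%) and 15 (5.81%) were higher, against 9.2%. On chromosome 15 the shares of pairs that were lower by 1.5-fold or 2-fold were thus little above those of all pairs, and fewer pairs were higher. On chromosome 18 both shares of lower pairs were farther above those of all pairs than the shares of higher pairs were below them.

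The shift was present in weak and in strong pairs. All pairs were split into 3 classes of equal size by the mean log2 pileup of both lines. Chromosome 15 lay below the other autosomes by a log2 difference of −0.27 in the weakest, −0.19 in the middle and −0.23 in the strongest class. Chromosome 18 lay below them by −0.21, −0.27 and −0.39. In the strongest class the medians were −0.36 over 91 pairs on chromosome 15 and −0.53 over 88 pairs on chromosome 18, against −0.13 elsewhere.

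The fold enrichment that the authors deposited showed no such shift. It is the summit pileup plus 1 over the local background plus 1, so it changes less than the pileup when both move by the same factor. In pairs on chromosome 15 the median enrichment was 9.79 for Jurkat and 8.29 for RPMI-8402, and on chromosome 18 it was 10.2 and 8.31, beside 9.60 and 8.36 on the other autosomes. The median log2 ratio was −0.0037 on chromosome 15 (−0.05 to 0.04) and 0.0051 on chromosome 18 (−0.04 to 0.07). Pairs below 0 numbered 243 of 484 (50.2%) and 127 of 258 (49.2%), where 50% of all pairs lay below 0. The enrichment was at least 1.5-fold lower in RPMI-8402 in 18 pairs (3.72%) and 15 pairs (5.81%), where 3.16% of all pairs were, and at least 1.5-fold higher in 28 (5.79%) and 18 (6.98%), where 7.51% were.

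The background solved for the same pairs was lower by about as much as the pileup. Its median log2 ratio was −0.23 on chromosome 15 (−0.27 to −0.18) and −0.37 on chromosome 18 (−0.45 to −0.27). It was below 0 in 336 of 484 pairs (69.4%) and 186 of 258 pairs (72.1%), where 50% of all pairs lay below 0. This is no second observation, because the background was solved from the pileup and the fold enrichment and can hold fragments of the peaks themselves. Whether the lines differ in copies of chromosomes 15 and 18 was not tested.

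**Figure D3:**
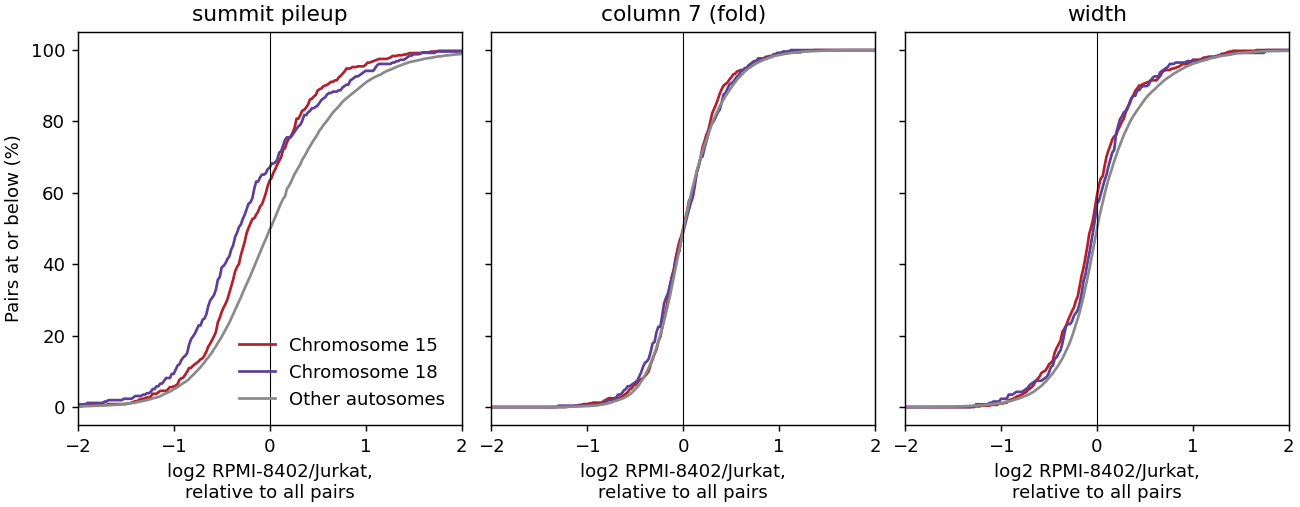
Curves give the percentage of 1-to-1 pairs at or below each log2 ratio of RPMI-8402 to Jurkat, relative to the median of all pairs, for summit pileup, fold enrichment (column 7) and width. For pileup, chromosomes 15 (red) and 18 (purple) lie to the left of the other autosomes (grey), with medians of −0.22 and −0.32, while for fold enrichment the 3 curves nearly coincide.

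Widths of pairs differed little. On chromosome 15 the median width was 771.5 bp in Jurkat and 766 bp in RPMI-8402, and on chromosome 18 it was 791 and 803.5 bp, while pairs on the other autosomes had medians of 760.0 and 797 bp. The centred log2 ratio was −0.06 on chromosome 15 (−0.10 to −0.03) and −0.03 on chromosome 18 (−0.08 to −0.0036), and the latter was 0.02 before centring. RPMI-8402 was at least 1.5-fold narrower in 46 pairs on chromosome 15 (9.50%) and 19 on chromosome 18 (7.36%), where 5.86% of all pairs were, and at least 1.5-fold wider in 41 (8.47%) and 20 (7.75%), where 11.4% were. Summits of a pair lay a median of 67 bp apart on chromosome 15 and 75.5 bp on chromosome 18, beside 67 bp on the other autosomes.

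By bin, the pileup shift of chromosome 15 was even. The median log2 ratio was below 0 in 16 of 17 bins, with 9 to 63 pairs each, where 47.6% of the 544 autosomal bins with at least 5 pairs were. The middle 50% of its bins lay between −0.26 and −0.13. Only the bin at 60 to 65 Mb reached −0.5, with −0.54 over 28 pairs, of which 23 were below 0, and median pileups of 47.5 in Jurkat and 32 in RPMI-8402. The bins at 65 to 70 and 95 to 100 Mb lay closest to 0 from below, at −0.01 and −0.02. The bin at 20 to 25 Mb was the exception, at 0.14 over 18 pairs, although it held 37 Jurkat and 26 RPMI-8402 peaks. Its pairs were also wider in RPMI-8402, with medians of 556 bp in Jurkat and 820.5 bp in RPMI-8402 and a centred log2 ratio of 0.27. Fold enrichment was below 0 in 9 of 17 bins, where 46.1% of all bins were, and its bin medians stayed between −0.13 and 0.13. Width was below 0 in 14 of 17 bins, where 46.3% were. Fewer peaks and a lower median pileup came together in 14 of 17 bins.

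**Figure D4:**
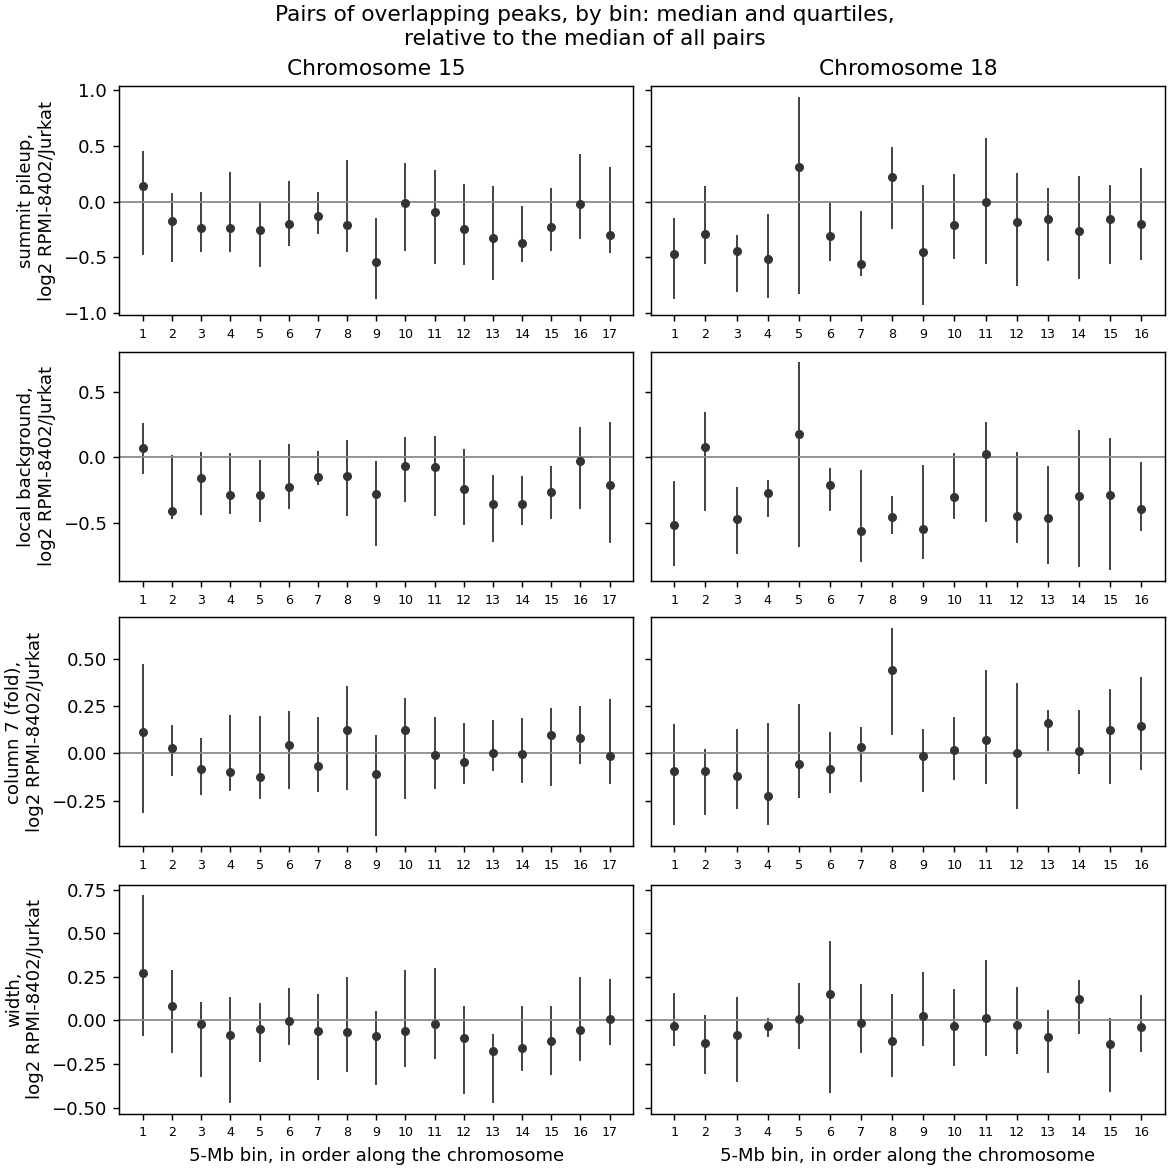
Points give, for the pairs in each 5-Mb bin, the median log2 of RPMI-8402 over Jurkat, relative to the median of all pairs, and bars span the quartiles. Rows show summit pileup, local background, fold enrichment (column 7) and width on chromosomes 15 (left) and 18 (right), with 16 of 17 and 14 of 16 pileup medians below 0.

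On chromosome 18 the pileup medians varied more from bin to bin. They were below 0 in 14 of 16 bins, with 6 to 27 pairs each, and their middle 50% lay between −0.45 and −0.16. The bins at 30 to 35 Mb and 15 to 20 Mb reached −0.57 over 20 pairs and −0.52 over 8 pairs, or 2 of 16 bins at −0.5 or less, where 5.88% of all bins were. The 3 bins from 0 to 15 Mb had −0.47, −0.29 and −0.44. The 2 bins above 0 were 20 to 25 Mb, at 0.31 over 17 pairs, and 35 to 40 Mb, at 0.22 over 6 pairs. Pairs below the widest gap had a median of −0.44 (64 pairs, −0.58 to −0.31). Those above it had a median of −0.24 (194 pairs, −0.36 to −0.14), so the intervals overlap. Fold enrichment was below 0 in 7 of 16 bins. Its bin medians ran from −0.22 at 15 to 20 Mb to 0.44 at 35 to 40 Mb. The latter, over 6 pairs, was the highest of all 544 autosomal bins with at least 5 pairs. The median fold enrichment ratio was −0.10 below the gap (−0.22 to 0.02) and 0.05 above it (−0.03 to 0.11). The background was below 0 in 13 of 16, where 49.4% of all bins were, and this held at 35 to 40 Mb, with −0.46. Fewer peaks and a lower median pileup were each found in 14 of 16 bins, and 13 bins had both. With counts this high a large overlap was fixed beforehand, so it does not show that the 2 go together.

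The turned bin of chromosome 18 was made of unlike stretches, which were chosen after the values were seen. From 20 to 21 Mb there were 4 Jurkat and 9 RPMI-8402 peaks, the largest part of the bin's surplus, and 2 of 4 pairs had a lower and 2 a higher pileup in RPMI-8402, between −0.99 and 1.49 on the log2 scale. From 21 to 22 Mb there were 10 Jurkat and 8 RPMI-8402 peaks, and 5 of 6 pairs were lower, with a median log2 ratio of −0.84, while the pair nearest to 22 Mb was higher, at 1.10. From 22 to 25 Mb, 6 of 7 were higher, with a median of 0.52, and there were 10 Jurkat and 14 RPMI-8402 peaks. The run of 4 RPMI-8402-only regions at 24128614 to 24283959 lay in this last stretch. No other bin of chromosome 18 had both more RPMI-8402 peaks and a pileup median above 0.

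At the other extreme was the first 1 Mb of chromosome 18, also chosen after its values were seen. There 10 of 11 pairs had a lower pileup in RPMI-8402, with a median log2 ratio of −0.97. The background was lower in all 11 pairs, with a median of −0.95. Fold enrichment was lower in 7 and higher in 4, with a median of −0.16. Pairs at Jurkat positions 107858 and 110318 had very high pileups, 4299 and 839 in Jurkat and 2480 and 537 in RPMI-8402. At 110318 fold enrichment was only 1.65 for Jurkat and 1.62 for RPMI-8402. At Jurkat positions 681652 to 682656 the summit held 179 Jurkat and 31 RPMI-8402 fragments, which after centring is 5.13-fold more in Jurkat (95% exact interval 3.49 to 7.78). There the fold enrichment was 5.75 for RPMI-8402 against 11.1 for Jurkat. The pair at 711859 to 713204 had 144 and 30, a ratio of 4.27 (2.86 to 6.55). These were the most different pairs of the chromosome in favour of Jurkat, and the strongest Jurkat-only peak, at 976101, lies in the same stretch. Outside this stretch, the pair at 57813243 to 57814074 had 51 and 12, a ratio of 3.78 (1.99 to 7.78). Its RPMI-8402 peak, at 57814022 to 57814795, overlapped only at the edge, and the summits lay 357 bp apart. This ratio therefore compares different positions.

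Single pairs that were higher in RPMI-8402 occurred on both chromosomes against the general shift. On chromosome 18 the Jurkat peak at 71764662 to 71765319 held 28 fragments and its RPMI-8402 partner 120, which after centring is 4.82-fold more in RPMI-8402 (3.17 to 7.56). The peak at 42259053 to 42259584 had 26 against 77, a ratio of 3.33 (2.11 to 5.42). The peak at 31158650 to 31159024 had 11 against 29, a ratio of 2.97 (1.44 to 6.58). The summits of this last pair lay 863 bp apart, so its ratio compares different positions. On chromosome 15 the Jurkat peak at 98227516 to 98227887 had 17 against 95, a ratio of 6.29 (3.73 to 11.2). This was the widest difference between pairs of both chromosomes, and fold enrichment there was 14.1 for RPMI-8402 against 6.96 for Jurkat. Summits at 65186097 to 65186631 and 49268052 to 49268331 had 25 against 75 and 13 against 37, ratios of 3.38 (2.12 to 5.54) and 3.20 (1.66 to 6.57).

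Of the pairs higher in Jurkat on chromosome 15, the peak at 42264173 to 42265168 held 109 fragments and its partner 21, which after centring is 4.61-fold more in Jurkat (2.87 to 7.75). The peaks at 63892631 to 63893695 and 100881609 to 100882673 had 78 against 18 and 92 against 22, ratios of 3.85 (2.28 to 6.84) and 3.72 (2.32 to 6.22). The first of these last lies in the 60 to 65 Mb bin, which had the lowest median of the chromosome. In all 3 pairs fold enrichment was lower in RPMI-8402 as well, at 6.66 against 14.0, 4.32 against 8.89 and 5.38 against 9.29.

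Among the 22 autosomes, the pair medians of chromosomes 15 and 18 were not apart from the rest. Counted from the lowest, chromosome 18 ranked 2 and chromosome 15 ranked 7 in the median pileup ratio. Chromosome 16 had a median of −0.32 and a peak number ratio of 0.872, and chromosome 22 had −0.23 and 0.850. Chromosome 16, with 813 Jurkat and 709 RPMI-8402 peaks, also had fewer RPMI-8402 peaks in 16 of 18 bins. Chromosome 13 lay lower, with a median of −0.62 and 10 of 16 bins at −0.5 or less. In fold enrichment chromosomes 15 and 18 ranked 9 and 12, in the middle of the autosomes. In the share of RPMI-8402 peaks with a partner, chromosome 15 ranked 19 of 22 from the lowest, below chromosomes 16 (84.5%), 22 (83.7%) and 19 (81.7%). In the share of Jurkat peaks with a partner, chromosome 18 ranked 2, above chromosome 13 (49.3%).

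**Figure D5:**
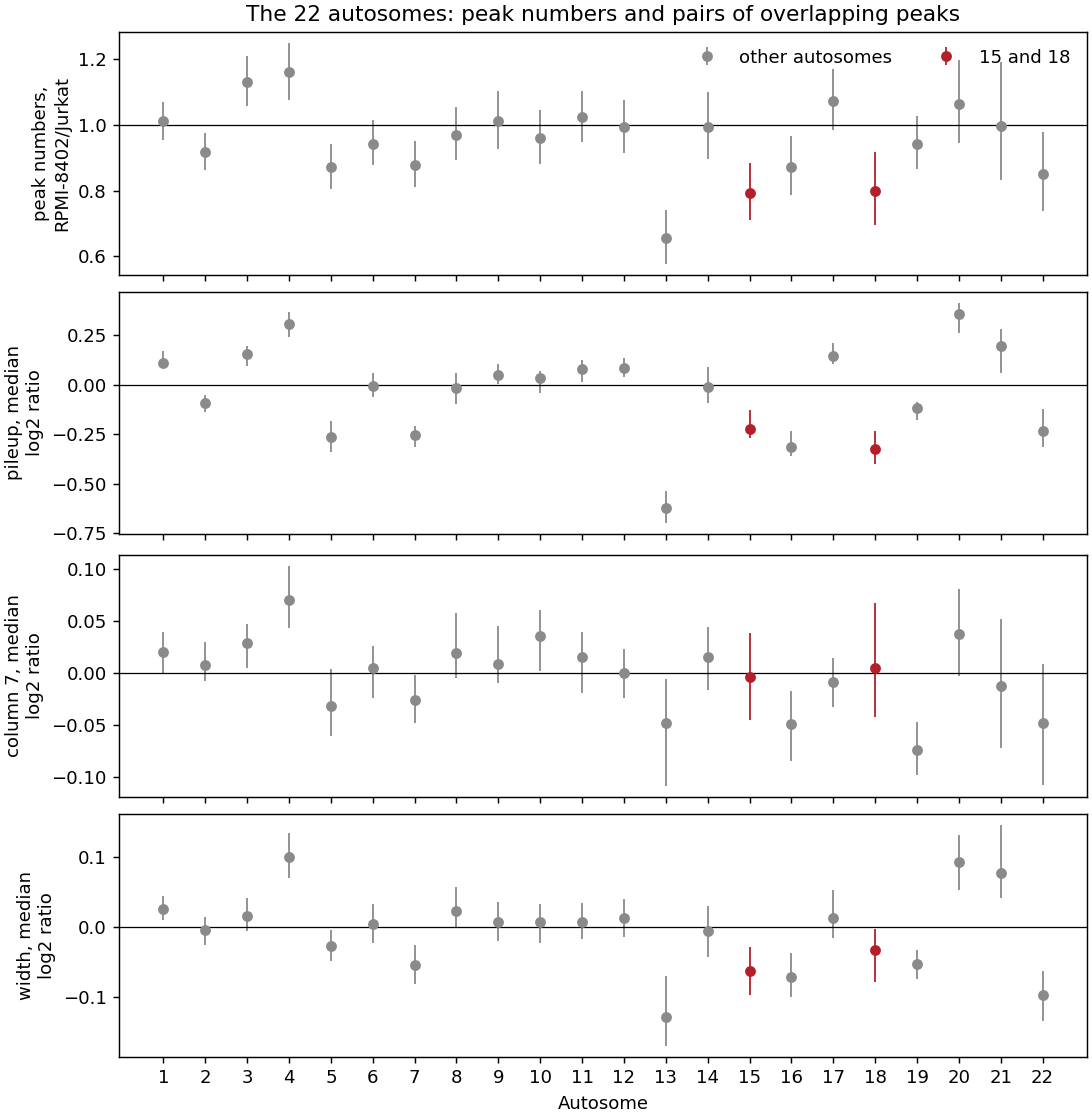
Points give, for each of the 22 autosomes, the ratio of RPMI-8402 to Jurkat peak number and the median log2 ratios of pileup, fold enrichment (column 7) and width over pairs, relative to all pairs, with 95% intervals (counting error for numbers, order statistics over pairs for medians). Chromosomes 15 and 18 (red) lie at 0.792 and 0.799 in peak number and near 0 in fold enrichment.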

How the data were processed

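ATAC-seq peaks of 1 Jurkat and 1 RPMI-8402 library (read as 150-bp pairs, per the labels' protocols) were analysed from the deposited narrowPeak lists. The submitters' processing notes name the hg19 build, MACS2 2.1.1.2016030, Bowtie2, SAMtools and Picard but give no parameters. Read filters and read totals are not given in the sources here. Each list is assigned to a single library. The deposited fold enrichment (column 7, a ratio), −log10 p-value and −log10 q-value are the authors' peak values; the deposited score column holds that −log10 p-value multiplied by 10 without its decimals. Start, end and summit offset are deposited positions. Pileup and local background were solved from fold and p with the formulas known for MACS2, fold being (pileup + 1)/(background + 1) and p an upper Poisson tail; the pileup was whole, within 1% of a step, in 100% of peaks. The solved genome background was 1.59 (Jurkat) and 1.96 (RPMI-8402) fragments, and the weakest peaks had pileups of 9 and 10.

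Peaks were assigned to 5-Mb bins by summit, and shared at an overlap of 1 bp with pandas 2.3.3, scipy 1.17.1 and numpy 2.4.6 under Python 3.11.15 (plots: matplotlib 3.10.9); bedtools 2.31.1 gave the same numbers. Mitochondrial peaks (8 and 4) were left out. Bin medians needed 5 pairs. Intervals are exact binomial (shares, and conditional for ratios), Poisson (pileups) or order-statistic (medians over pairs), all at 95%; fragments that are PCR copies would make them too narrow. With 1 library per line no test was made. Scripts were tested on simulated data.

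Members, lists and rules were chosen with earlier results of these data known. Named were, per chromosome and direction, the 3 strongest line-only peaks of at least the library's median width, the 3 pairs with the largest pileup ratio, the 2 longest runs and the 2 bins that differed most in peak number. Peaks at fixed gene lists and cell type markers were not analysed here, because the gene table used is on another build. No list of artefact-prone regions was applied.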

Additional observations from a re-analysis of the deposited data

How the results depend on the processing

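Of 68 alternative values, 41 stayed within the interval of the reported value (counts within 1.5 times), 26 moved and 1 reversed. The peak number ratio of chromosomes 15 and 18 was 0.892 and 0.949 without peaks under 400 bp wide, a setting that raised the other autosomes to 1.11. In 10-Mb bins, 100% of bins on chromosome 15 had fewer RPMI-8402 peaks, while on chromosome 18 the percentage went from 87.5% to 66.7% in 2-Mb bins and 68.8% at −log10 q of at least 10. With a reciprocal overlap of 50%, shares were 60.4% in Jurkat and 76.3% in RPMI-8402 on chromosome 15, and 62.6% in RPMI-8402 on chromosome 18. When peaks under a −log10 q of 10 were left out of both lists they were 69.0% and 84.7% on chromosome 15, and 63.1% and 74.4% on chromosome 18. Set against all peaks of the other line they were 77.7% and 90.2%, and 71.0% and 80.1%. Line-only peaks at −log10 q of at least 10 numbered 175 in Jurkat and 70 in RPMI-8402 on chromosome 15, and 121 and 71 on chromosome 18, as fewer peaks enter. Unscaled, the median log2 ratios on chromosomes 15 and 18 were −0.39 and −0.49 for pileup and −0.25 and −0.24 for fold enrichment; scaled by the genome background, pileup gave −0.70 and −0.80. The unscaled width ratio was −0.014 on chromosome 15 and turned to 0.016 on chromosome 18. Width minus the narrowest width of each list (261 and 309 bp), used in place of an unknown fragment length, gave −0.10 on chromosome 15. Centring and scaling subtract 1 constant from all pairs, so differences between chromosomes stay. No paired analysis was possible because only 1 library per line is analysed here, so no replicate could be left out either. Near the weakest pileups called, 9 and 10, an absent peak is not distinguishable from a call that fell short.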
